A study of Mus musculus with 10 samples.

Results

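The microRNAs miR-9 and miR-135 were followed in CD43- splenic B-cells cultured without or with lipopolysaccharide (LPS), a bacterial cell wall component that activates B-cells through Toll-like receptor 4. The members were miR-9-5p, miR-9-3p, miR-135a-5p and miR-135b-5p, which makes 4 of the 2015 features in the microRNA class of the count table (1302 mature microRNAs and 713 hairpin transcripts, in a table of 6968 small RNA features). They were chosen by their rise with LPS over these same 10 libraries. Their LPS values are therefore described below without a test, and the members were tested only between genotypes, which the choice did not use. The LPS contrast was fitted over all features, and its tests are quoted only for the share of features called and for other microRNAs.

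Small RNA was sequenced from wt mice, from mice lacking the 3'RR (the regulatory region downstream of the immunoglobulin heavy chain constant genes) and from mice lacking Eµ (the intronic enhancer of the same locus). The wt and 3'RR-deficient groups had 2 libraries without LPS and 2 with LPS, whereas Eµ-deficient mice had 1 library in each condition. Each library holds the cells of 2 mice, so that replicates are pools rather than single animals. The labels give a culture of 2 days for every library, with LPS at 5 µg/ml in the stimulated ones. The mice were adults of both sexes on a 129 background and carried the deletions in the germ line. The study describes its Eµ-deficient line, EµMAR, as lacking follicular B-cells, so the composition of the B-cell pool may differ between genotypes. In such bulk samples fewer cells of a type and less RNA per cell cannot be told apart.

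MicroRNAs are cut from hairpin precursors, from which one arm or both are kept, and pair with target messengers mainly through the seed, bases 2 to 8 of the mature strand. miR-9 is best known from the brain, where both arms act in neural progenitors and neurons, and is also known as induced by Toll-like receptor signals in myeloid cells. miR-135a and miR-135b are paralogues that are present at low level in most resting tissues and are often reported as raised in tumours.

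The mature strands are shown because they decide how the members can be told apart in a small RNA library. Sequences are from RefSeq on build GRCm38.p6, 5' to 3', with the seed in capitals. The miR-135b-5p strand is named only.
mmu-miR-9-5p: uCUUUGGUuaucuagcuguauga
mmu-miR-9-3p: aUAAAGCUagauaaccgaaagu
mmu-miR-135a-5p: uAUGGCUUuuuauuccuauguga

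The seeds of these 3 strands differ, and among the mature microRNAs of the table with a RefSeq sequence (1093 of 1302, or 83.9%) no other had the seed of any of them. This search did not include miR-135b-5p, which had no sequence in the reference used. It therefore cannot say whether this paralogue shares the seed of miR-135a-5p. The 3 strands are poor in G and C, with a GC content of 34.8% for miR-9-5p, 31.8% for miR-9-3p and 30.4% for miR-135a-5p. The median was 50% over 497 tested mature microRNAs, of which 7.24% were at or below 34.8%.

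miR-9 has 3 genomic copies with the same 2 mature strands. On the plus strand of GRCm38, Mir9-1 lies at chr3:88215598-88215686 in an intron of the non-coding gene Gm3764, Mir9-2 at chr13:83738814-83738885 in an exon of the non-coding gene C130071C03Rik, and Mir9-3 at chr7:79505264-79505353 in an intron of its host gene Mir9-3hg. The hairpins are given with both mature strands in capitals.
Mir9-1: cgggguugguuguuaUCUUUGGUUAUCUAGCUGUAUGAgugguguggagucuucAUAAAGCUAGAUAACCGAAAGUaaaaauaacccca
Mir9-2: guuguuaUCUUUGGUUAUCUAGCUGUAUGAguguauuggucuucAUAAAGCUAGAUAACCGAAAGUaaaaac
Mir9-3: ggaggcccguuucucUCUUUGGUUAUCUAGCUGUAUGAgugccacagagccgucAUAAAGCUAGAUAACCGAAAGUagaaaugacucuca

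The mature strands are letter for letter the same in the 3 hairpins, and only the loop and the flanks tell the copies apart. miR-135a has 2 copies, Mir135a-1 at chr9:106154124-106154213 on the plus strand in an intron of the antisense gene D030055H07Rik, facing an exon of Glyctk on the other strand, and Mir135a-2 at chr10:92072086-92072185 on the minus strand in an intron of the long non-coding gene Rmst. Mir135b has a single copy at chr1:132198088-132198184 on the plus strand in an intron of Lemd1. The 2 hairpins of miR-135a share the 5p strand but not the 3p strand.
Mir135a-1: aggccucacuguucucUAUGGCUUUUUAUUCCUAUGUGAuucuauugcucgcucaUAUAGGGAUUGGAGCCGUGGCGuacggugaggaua
Mir135a-2: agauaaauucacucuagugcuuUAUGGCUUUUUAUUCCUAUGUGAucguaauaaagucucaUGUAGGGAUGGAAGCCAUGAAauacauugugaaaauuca

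These copies left a mark in the counts. All 10 counts of miR-9-5p were divisible by 3, as were 6 of the 8 counts above 0 of miR-9-3p, and all 7 counts above 0 of miR-135a-5p were even. For miR-135b-5p, with its single copy, 6 of 7 were even too, so even counts in so few libraries say little alone. Over all mature microRNAs with 2 RefSeq loci, 72.6% of the counts above 0 were even, against 46.9% for those with 1 locus. For those with 3 loci, which are the 2 arms of miR-9, 88.9% were divisible by 3, against 31.3% for those with 1 locus. A read of these microRNAs thus appears to have been counted once at each copy, and the deposited counts of miR-9 and of miR-135a would then be 3 and 2 times the reads. A ratio between libraries is not touched by this factor. Levels of different members are therefore compared below only per copy, that is, divided by the number of copies. If reads were counted at each copy, such a value stands for all reads of the microRNA, not for the output of a single copy. The smallest count treated as measured was 3 counts for each copy, which would then be 3 reads of the microRNA.

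Library totals ranged from 3482540 to 18144016 counts, and the microRNA class took between 51.4% and 82.1% of them. Levels are given in CPM, the counts scaled to a common microRNA library size by TMM, a correction for differences in composition between libraries. The second non-stimulated replicates, 1 of wt and 1 of 3'RR-deficient cells, were the shallowest libraries and stood apart: 605 and 650 mature microRNAs had a count in them, against 776 to 864 in the other non-stimulated libraries. Their departure from the first replicates rose with GC content by 1.05 (wt) and 0.86 (3'RR-deficient) on the log2 scale per 10% GC, which places strands as poor in GC as those above lower in them. The corresponding slopes between LPS replicates were -0.24 and -0.18. The LPS changes of the members and of the lists below are also given without these libraries.

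miR-150-5p, a microRNA of mature lymphocytes, was present in every library at 7077 to 56331 CPM and was lower with LPS (log2 difference -2.45, adjusted p 0.00392 by edgeR). It was the one called, that is past an adjusted p of 0.05, of 3 lymphocyte microRNAs. The summed level of both miR-223 strands, which mark myeloid cells, was 479 to 5031 CPM without LPS and 82.4 to 512 CPM with LPS, and each of the 2 strands was called lower, against 8.61% of all 720 features tested. The summed level of 4 erythroid microRNAs was 2530 to 9290 CPM without and 167 to 4076 CPM with LPS, with 1 of 4 called lower. Of 5 stromal microRNAs 4 were called lower, with sums of 170 to 966 CPM without and 18.2 to 968 CPM with LPS. None of 2 endothelial and none of 5 epithelial microRNAs was called. Their sums were 25.3 to 141 and 925 to 2172 CPM without LPS, and 20.8 to 78.6 and 599 to 766 CPM with LPS. Of these 5 lists no microRNA was called higher, but sums were not lower in each library: the stromal sum of Eµ-deficient cells was 548 CPM without and 968 CPM with LPS. The endothelial sum of wt cells was 141 CPM and, in the shallow second replicate, 25.3 CPM without LPS, and 47.7 and 78.6 CPM with LPS. Without the second non-stimulated replicates 2 of 2 myeloid, 4 of 4 erythroid, 3 of 4 stromal, 3 of 4 epithelial, 2 of 3 lymphocyte and 0 of 2 endothelial microRNAs were called lower, against 12% of 824 features.

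Without LPS, miR-9-5p stood at 31.3 and 7.99 CPM in wt replicates 1 and 2, at 21.4 and 5.33 CPM in 3'RR-deficient replicates 1 and 2 and at 15.5 CPM in Eµ-deficient cells. With LPS it stood at 129 and 230 CPM in wt, at 190.4 and 320.1 CPM in 3'RR-deficient cells and at 156 CPM in Eµ-deficient cells. The lowest LPS library was above the highest non-stimulated one, so that the conditions did not overlap. miR-9-5p was thus present before LPS, at 279, 24, 162, 18 and 150 counts, above the floor of 3 counts per copy in all 5 libraries. In the shallow wt and 3'RR-deficient replicates its 24 and 18 counts amount to 8 and 6 reads.

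The LPS mean of miR-9-5p was 9.11 times the non-stimulated mean in wt cells and 19.1 times in 3'RR-deficient cells. In Eµ-deficient cells, with a single library on each side, the ratio was 10.01 (95% counting interval 7.50 to 13.6). Against the first non-stimulated replicate alone the ratios were 5.72 in wt and 11.9 in 3'RR-deficient cells, and against the second alone 22.4 and 47.9. Counting intervals and floors cover counting error only, since PCR copies were not collapsed to molecules.

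miR-9-3p, the opposite arm of the same hairpins, stood at 12.5 and 0 CPM in wt, at 7.53 and 0 CPM in 3'RR-deficient and at 8.39 CPM in Eµ-deficient cells without LPS. With LPS it stood at 80.01 and 87.2 CPM in wt, at 83.4 and 143 CPM in 3'RR-deficient and at 52.9 CPM in Eµ-deficient cells. Every LPS library was again above every non-stimulated one. The 2 libraries at 0 were the shallow second replicates, where the floor of 3 counts per copy corresponds to 3.00 and 2.66 CPM. The first replicates, at 111 and 57 counts, were not at the floor. The LPS mean was 13.4 times the non-stimulated mean in wt, 30.1 times in 3'RR-deficient and 6.31 times (4.22 to 9.82) in Eµ-deficient cells, and against the first replicate alone 6.71 times in wt and 15.05 times in 3'RR-deficient cells. Against the second replicate alone, at 0, it was at least 27.9-fold and 42.5-fold higher.

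miR-135a-5p was close to absent without LPS. It had 10 and 0 counts in wt, 0 and 0 in 3'RR-deficient and 42 in Eµ-deficient cells, that is 1.12, 0, 0, 0 and 4.35 CPM. With LPS it had 174 and 946 counts in wt, 106 and 738 in 3'RR-deficient and 220 in Eµ-deficient cells, or 36.3, 142, 23.4, 100.1 and 19.2 CPM. The conditions did not overlap, and the Eµ-deficient pair lay closest together, being the highest of the non-stimulated and the lowest of the LPS libraries. The LPS mean was 159 times the non-stimulated mean in wt cells, a ratio that rests on 10 counts in a single library. In 3'RR-deficient cells the rise was at least 48.1-fold, with bounds from 18.3 (without LPS replicate 2) to 77.9 (without non-stimulated replicate 2 or LPS replicate 1) when single libraries were left out. The wt ratio was 64.6 without LPS replicate 2, 254 without LPS replicate 1 and at least 44.7 without the non-stimulated library that held the 10 counts. In Eµ-deficient cells it was 4.42 times higher (2.76 to 7.43).

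miR-135b-5p followed the same course at 6, 0, 0, 0 and 16 counts without LPS, which is 0.67, 0, 0, 0 and 1.66 CPM in the order given for miR-135a-5p. With LPS it had 96 and 555 counts in wt, 62 and 424 in 3'RR-deficient and 140 in Eµ-deficient cells, or 20.0, 83.6, 13.7, 57.5 and 12.2 CPM. All LPS libraries again lay above all non-stimulated ones. The LPS mean was 154 times the non-stimulated mean in wt cells and exceeded it at least 55.4-fold in 3'RR-deficient cells, and it was 7.39 times higher (4.39 to 13.3) in Eµ-deficient cells. In 3'RR-deficient cells the bound was 21.4 without LPS replicate 2, 89.5 without LPS replicate 1 and 89.8 without non-stimulated replicate 2. In wt cells the ratio was 59.4 without LPS replicate 2, 248 without LPS replicate 1 and at least 51.8 without the non-stimulated library that held the 6 counts. Against the first non-stimulated wt replicate alone it was 76.9, and for miR-135a-5p 79.6.

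**Figure D1:**
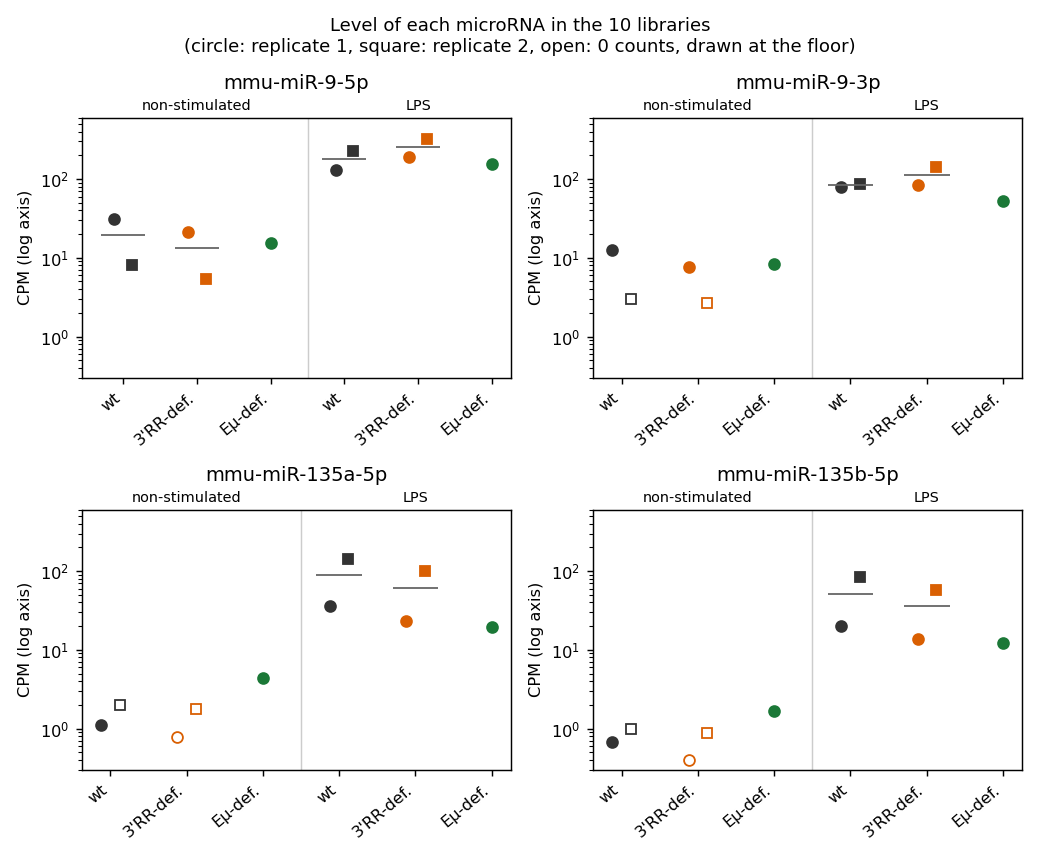
Level of each member in the 10 libraries in CPM on a log axis, without and with LPS, by genotype. Circles are replicates 1, squares are replicates 2, lines are means of 2 libraries, and open symbols are libraries with 0 counts drawn at the floor. For each member the lowest LPS point lies above the highest non-stimulated one.

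For all 4 members the 5 LPS libraries lay above the 5 non-stimulated ones. This held for 11.2% of the 988 microRNA features that passed the filter on low counts, and as the members were selected on this contrast nothing is read from their count. Over the 8 wt and 3'RR-deficient libraries, with a prior count of 2, the LPS minus non-stimulated log2 difference was 3.94 ± 0.97 for miR-9-5p, 5.71 ± 2.43 for miR-9-3p, 6.95 ± 1.13 for miR-135a-5p and 6.29 ± 1.03 for miR-135b-5p (± SD between replicates). Without the second non-stimulated replicates these differences were 2.90, 3.18, 6.54 and 6.01 on the log2 scale. With the trend on GC content removed they were 3.05 for miR-9-5p, 4.74 for miR-9-3p and 5.88 for miR-135a-5p.

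Among the 720 features tested in these 8 libraries, edgeR called 95 higher with LPS (13.2%) and 62 lower (8.61%). Without the second non-stimulated replicates it called 118 higher and 99 lower of 824. By the fitted difference, which for features at 0 depends on the fit's prior count, miR-135a-5p ranked 2 and miR-135b-5p ranked 3 of 720, with 7.91 and 7.67 on the log2 scale. miR-9-3p ranked 29 with 4.26 and miR-9-5p ranked 42 with 3.69. Without the second non-stimulated replicates the fitted differences were 7.10, 6.96, 3.21 and 2.93. These ranks describe the contrast by which the members were chosen, and nothing is read from them.

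**Figure D2:**
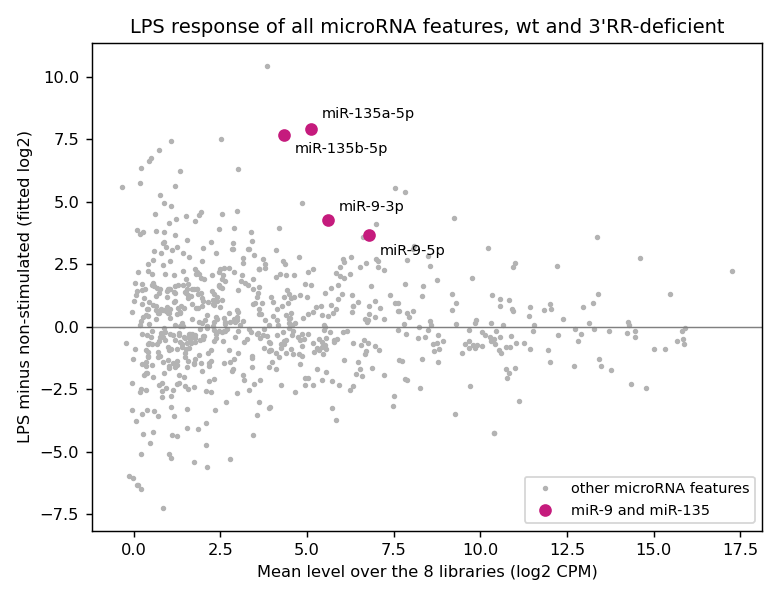
Fitted log2 difference between LPS and non-stimulated libraries (vertical axis) against mean level in log2 CPM (horizontal axis) for the 720 features tested in the 8 wt and 3'RR-deficient libraries. The 4 members are the coloured points, miR-135a-5p and miR-135b-5p at 7.91 and 7.67 and miR-9-3p and miR-9-5p at 4.26 and 3.69.

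Per copy, the order of the members was not the same in each LPS library. In wt replicate 1, miR-9-5p stood at 42.9, miR-9-3p at 26.7, miR-135b-5p at 20.0 and miR-135a-5p at 18.1 CPM per copy. In wt replicate 2, miR-135b-5p came first at 83.6, followed by miR-9-5p at 76.5, miR-135a-5p at 71.2 and miR-9-3p at 29.1. miR-9-3p was above both miR-135 strands in the first replicates and in Eµ-deficient cells, and below both in the second LPS replicates.

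As group means per copy in wt LPS cells, miR-9-5p was at 59.7 ± 23.7, miR-135b-5p at 51.8 ± 45.0, miR-135a-5p at 44.7 ± 37.5 and miR-9-3p at 27.9 ± 1.69 CPM (SD, n = 2). In 3'RR-deficient LPS cells the order was miR-9-5p at 85.1 ± 30.6, miR-9-3p at 37.8 ± 14.1, miR-135b-5p at 35.6 ± 31.0 and miR-135a-5p at 30.9 ± 27.1. No pair of neighbours in the wt order differed by more than their spread between replicates. Within libraries miR-135b-5p was above miR-135a-5p per copy in all 5, at 13.7 against 11.7 and 57.5 against 50.0 CPM in 3'RR-deficient and 12.2 against 9.62 CPM in Eµ-deficient cells. This order rests on dividing the miR-135a-5p counts by its copies, and on the deposited counts it was the reverse in all 5. In 3'RR-deficient cells miR-9-5p and miR-9-3p lay further apart than the SD of either.

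The order changed with the spread of miR-135 between LPS replicates. The second replicate was 3.93 times the first for miR-135a-5p and 4.18 times for miR-135b-5p in wt cells, and 4.27 and 4.19 times in 3'RR-deficient cells. For miR-9-5p the same ratio was 1.78 in wt and 1.68 in 3'RR-deficient cells, and for miR-9-3p it was 1.09 and 1.72. The ratio of miR-9-5p to miR-135a-5p per copy was 2.37 and 1.07 in wt, 5.42 and 2.13 in 3'RR-deficient and 5.39 in Eµ-deficient LPS cells. The second LPS libraries were also the deeper ones, at 11247124 and 13859730 counts against 6054137 and 6056266, and the part of depth in these ratios was not tested.

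The 5p arm was the more frequent arm of miR-9 in each of the 10 libraries. Of the miR-9 reads, taken as counts per copy, miR-9-5p made up 61.7% (exact 95% interval 56.2 to 66.9) and 72.5% (69.0 to 75.7) in wt LPS, 69.5% (64.8 to 73.9) and 69.1% (66.3 to 71.8) in 3'RR-deficient LPS and 74.6% (71.4 to 77.6) in Eµ-deficient LPS cells. Without LPS it was 71.5% (63.0 to 79.1) in wt replicate 1, 74.0% (62.4 to 83.5) in 3'RR-deficient replicate 1 and 64.9% (53.2 to 75.5) in Eµ-deficient cells. In both shallow replicates all 8 and all 6 reads were miR-9-5p, and the intervals reached down to 63.1% and 54.1%. The intervals of the wt LPS replicates did not overlap each other, but they assume independent reads. Each non-stimulated interval overlapped that of an LPS library of its genotype, and a shift in arm use with LPS was not detectable at this depth.

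The balance of the miR-135 paralogues varied less than their level. miR-135a-5p made up 47.5% (40.1 to 55.0) and 46.0% (42.9 to 49.1) of the reads of both miR-135 5p strands in wt LPS cells, counted per copy. It made up 46.1% (36.8 to 55.6) and 46.5% (43.0 to 50.1) in 3'RR-deficient LPS cells and 44.0% (37.8 to 50.4) in Eµ-deficient LPS cells. On the deposited counts, not divided by copies, the share was 61.1% to 64.4% in these libraries. All 5 intervals overlapped, while the level of miR-135a-5p ranged from 19.2 to 142 CPM. The 2 non-stimulated libraries with more than a few reads gave 45.5% (16.7 to 76.6) in wt replicate 1 and 56.8% (39.5 to 72.9) in Eµ-deficient cells. Since the paralogues are near-identical, reads could be divided between them by the alignment, and the part of this in the share was not tested.

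**Figure D3:**
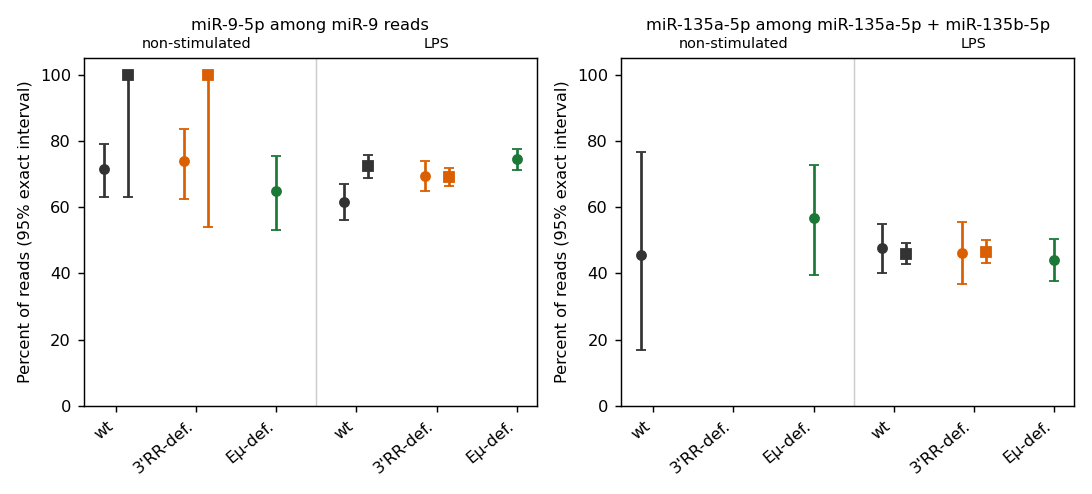
Left, percent of miR-9 reads that were miR-9-5p. Right, percent of reads of both miR-135 5p strands that were miR-135a-5p. Points are single libraries, with reads counted per copy and exact 95% binomial intervals, and libraries with 0 reads have no point. The LPS points lie between 61.7% and 74.6% on the left and between 44.0% and 47.5% on the right.

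The remaining products of these loci were low. miR-135b-3p, the opposite arm of miR-135b, was at 0 counts in every one of the 5 non-stimulated libraries, and had 31, 33, 5, 17 and 53 counts with LPS in wt replicates 1 and 2, 3'RR-deficient replicates 1 and 2 and Eµ-deficient cells. Its rise was at least 8.56-fold in wt, at least 2.66-fold in 3'RR-deficient and at least 14.9-fold in Eµ-deficient cells. With single libraries left out the bound ranged from 5.72 to 17.0 in wt and from 1.72 to 4.30 in 3'RR-deficient cells. The 5p strand was 75.6%, 94.4%, 92.5%, 96.1% and 72.5% of the miR-135b reads in these LPS libraries. miR-135a-1-3p, the 3p strand of the first miR-135a copy, had 12 counts in wt non-stimulated replicate 1 and 0 in the other 9 libraries. The 3p arm of miR-135b was thus seen in the LPS libraries only, whereas the 5p arm also had counts in 2 non-stimulated ones.

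The table also gives counts to hairpin transcripts, each named for one copy, and how reads were placed on them is not given in the sources used here. The Mir9-2 hairpin (ENSMUST00000083490) had 1, 0, 0, 0 and 0 counts without LPS and 17, 34, 2, 70 and 10 counts with LPS, in the library order used for miR-135b-3p. The LPS counts were above the floor of 3 reads in 4 of 5 libraries, and 3'RR-deficient replicate 1 with its 2 counts was under it. The Mir9-3 hairpin (ENSMUST00000175497) had 0, 0, 0, 7 and 4 counts without and 5, 0, 0, 0 and 0 with LPS. Of these miR-9 hairpins, Mir9-2 was the one with more counts in the LPS libraries. No hairpin row was found under the names Mir9-1, Mir135a-1 or Mir135a-2, so those copies could not be compared. The Mir135b hairpin (ENSMUST00000083501) had 1, 0, 0, 0 and 0 counts without LPS and 46, 13, 2, 4 and 43 with LPS. In 3'RR-deficient LPS cells the 2 counts of replicate 1 were under the floor of 3 reads and the 4 of replicate 2 just above it.

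**Figure D4:**
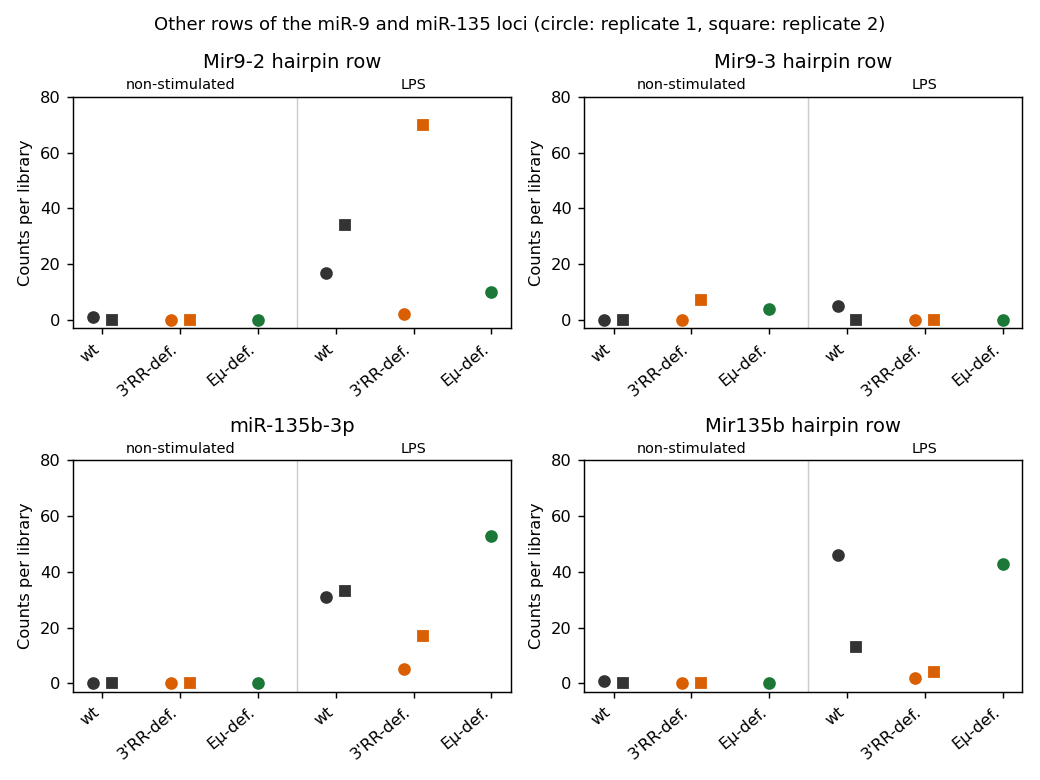
Counts per library for the Mir9-2, Mir9-3 and Mir135b hairpin transcripts and for miR-135b-3p, without and with LPS, by genotype. Circles are replicates 1 and squares replicates 2. Counts of the Mir9-2 hairpin reach 70 with LPS and those of the Mir9-3 hairpin stay at or below 7.

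The first genotype comparison asked whether the 3'RR affects the level of the members in LPS-stimulated cells. In LPS libraries miR-9-5p was at 179 ± 71.2 CPM in wt and 255 ± 91.7 CPM in 3'RR-deficient cells, and miR-9-3p at 83.6 ± 5.08 and 113 ± 42.3 CPM (SD, n = 2). miR-135a-5p was at 89.4 ± 75.1 CPM in wt and 61.7 ± 54.2 CPM in 3'RR-deficient cells, and miR-135b-5p at 51.8 ± 45.0 and 35.6 ± 31.0 CPM. For all 4 members the libraries of the 2 genotypes overlapped. Of the 720 features tested, 32.2% had both 3'RR-deficient libraries on one side of both wt libraries. With 2 libraries a side, a random order of libraries would give a share near this one, so nothing is read from the overlap.

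By edgeR's quasi-likelihood test, the 3'RR-deficient minus wt log2 difference was 0.51 (SE 0.83, 95% interval -1.33 to 2.35) for miR-9-5p and 0.41 (SE 1.47, -2.86 to 3.69) for miR-9-3p. It was -0.56 (SE 1.01, -2.84 to 1.72) for miR-135a-5p and -0.56 (SE 1.00, -2.81 to 1.69) for miR-135b-5p. The adjusted p was 1 for each. None of the 720 features was called (0%) by this test, 15 had an unadjusted p under 0.05, and DESeq2 called 2, neither of them a member. For miR-9-5p the interval spans a fold of 0.40 to 5.11 and for miR-135a-5p one of 0.14 to 3.29, so that differences of several fold in either direction were not detectable. The sign for the miR-135 strands rested on single libraries: without wt LPS replicate 2 the differences were 0.63 for miR-135a-5p and 0.70 for miR-135b-5p, and without 3'RR-deficient LPS replicate 1 they were 0.12 and 0.11.

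The second genotype comparison asked the same for Eµ. With a single Eµ-deficient library in each condition, it was tested over both conditions, in a fit of all 10 libraries. The Eµ-deficient minus wt log2 difference was -0.29 (SE 0.68, 95% interval -1.73 to 1.16) for miR-9-5p and -0.03 (SE 1.16, -2.49 to 2.44) for miR-9-3p, with edgeR adjusted p of 0.898 and 0.996. It was 1.47 (SE 1.30, -1.30 to 4.24) for miR-135a-5p and 0.63 (SE 1.21, -1.95 to 3.20) for miR-135b-5p, with edgeR adjusted p of 0.728 and 0.888. Of the 988 features tested, 16 were called (1.62%) and none of them was a member. This count was 57 by DESeq2 and depended on single libraries, with 1 call without the Eµ-deficient LPS library, 2 without either wt LPS replicate and 33 without wt non-stimulated replicate 1. Leaving out the Eµ-deficient non-stimulated library turned the miR-135 values to -2.62 and -2.39, and leaving out the LPS one gave 3.46 and 2.71. The miR-9-3p value changed sign in 12 of 21 alternatives and that of miR-9-5p in 7 of 21.

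Within a condition the Eµ-deficient library was first compared with the wt mean as a ratio. miR-9-5p was at 0.79 times the wt mean without LPS and 0.87 times with LPS, and miR-9-3p at 1.35 and 0.63 times. miR-135a-5p was at 7.75 times the wt mean without LPS, where the counts were 42 against 10 and 0, and at 0.22 times with LPS. For miR-135b-5p the ratios were 4.92 and 0.24. Against the first wt replicate alone they were 3.87 and 0.53 for miR-135a-5p and 2.46 and 0.61 for miR-135b-5p, and against the second LPS replicate alone 0.14 and 0.15. The Eµ-deficient library was thus the highest of 5 for both miR-135 strands without LPS and the lowest of 5 with LPS, as it was for 1.32% of the 988 features (5.26% when set against the 2 wt libraries alone), and with 1 library a condition this has no replicate check. In a fit with a mean per group, chosen after seeing the data, the lone Eµ-deficient library was assumed to vary like the replicated groups. Its edgeR log2 difference from wt was 2.64 (SE 1.26, adjusted p 0.777) without and -2.21 (SE 1.34, adjusted p 0.729) with LPS for miR-135a-5p. For miR-135b-5p it was 1.91 (SE 1.36, adjusted p 0.815) without and -2.08 (SE 1.36, adjusted p 0.757) with LPS. Of the 988 features 0.101% were called without and 0.709% with LPS, none of them a member. The difference between conditions was -4.85 for miR-135a-5p and -3.99 for miR-135b-5p on the log2 scale. It includes the LPS change by which the members were chosen, so it is given without a test. The same Eµ-deficient libraries had the highest myeloid sums of their conditions, at 5031 and 512 CPM, and the highest erythroid sums, at 9290 and 4076 CPM. The LPS one had a stromal sum of 968 CPM against 18.2 to 67.7 CPM in the other 4 LPS libraries. The part of these other cells in the miR-135 ratios was not tested.

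**Figure D5:**
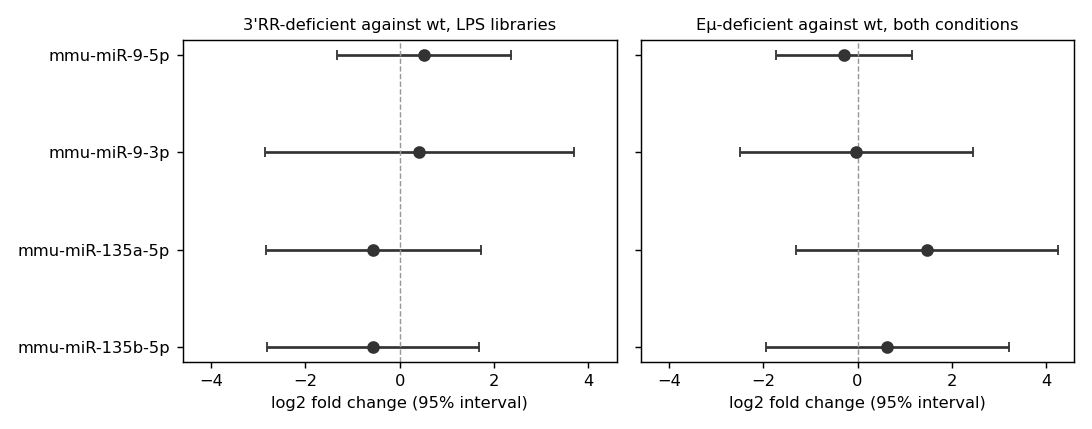
Log2 fold change of each member with its 95% interval, for 3'RR-deficient against wt in the LPS libraries (left) and Eµ-deficient against wt over both conditions (right), from edgeR. Each interval includes 0, and the estimates lie between -0.56 and 1.47.

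Other microRNAs known to respond to Toll-like receptor or NF-kB signals moved in both directions with LPS. Of 18 on the list 6 were called higher and 3 lower by edgeR, against 13.2% and 8.61% of all features, and the median log2 difference was 1.01 against 0.07 over all features. Without the second non-stimulated replicates 8 were called higher and 3 lower (44.4% and 16.7%), against 14.3% and 12% of 824 features. The median was then 0.85 against 0.15 over all features. The largest rises were those of miR-155-3p, the passenger strand of a microRNA that B-cells need for the germinal centre response (5.56, SE 0.54, adjusted p 0.000184), miR-21a-3p (4.10, SE 0.64, adjusted p 0.00261), miR-146a-3p (3.95, SE 1.00, adjusted p 0.0193) and miR-17-5p of the proliferation-linked miR-17-92 cluster (3.14, SE 0.67, adjusted p 0.00967). The guide strand miR-155-5p rose by 2.76 (SE 0.44, adjusted p 0.00261). The far more abundant 5p strands of the other 2 were not called by edgeR: miR-21a-5p (2.22, SE 0.81, adjusted p 0.0723) and miR-146a-5p (1.32, SE 0.54, adjusted p 0.102). Without the second non-stimulated replicates edgeR gave 1.25 (adjusted p 0.0375) for miR-21a-5p and 0.60 (adjusted p 0.262) for miR-146a-5p. Those called lower were miR-125a-5p (-3.72, adjusted p 0.00346), miR-223-3p (-3.49, adjusted p 0.00261) and miR-125b-5p (-3.24, adjusted p 0.00261). In absolute level miR-155-5p reached 27430 to 100675 CPM with LPS, far above any member.

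Other microRNAs of neural tissue were examined because miR-9 is best known there. Of 12 listed, 10 were in the table and 6 passed the filter, of which edgeR called miR-218-5p (3.59, SE 0.85, adjusted p 0.0147) and miR-7b-5p (2.40, SE 0.75, adjusted p 0.0422) higher and none lower, against 13.2% higher and 8.61% lower of all features. Without the second non-stimulated replicates 3 were called higher, with miR-129-5p (at most 24 counts in a library) added, and 1 lower, miR-138-5p. That fit called 14.3% higher and 12% lower of 824 features. miR-124-3p, the most abundant microRNA of neurons, had 0 counts in all 10 libraries. miR-153-3p, miR-129-2-3p and miR-137-3p had at most 1, 2 and 8 counts in any library. The summed level of the list was 987 to 2942 CPM without and 2924 to 7130 CPM with LPS, most of it miR-7b-5p and miR-128-3p. Members of this list thus differed, with some called higher and miR-124-3p at 0.

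The microRNAs whose level followed each member most closely were ranked by Pearson's r of log2(CPM + 1) over the 10 libraries among 801 mature microRNAs, with the members themselves left out. These points fall into a non-stimulated and an LPS cluster and share libraries and depth, so that r mainly ranks how evenly features were raised in the LPS libraries, and no p is given. For miR-9-5p they were miR-6537-3p (0.977), miR-182-5p (0.971) and miR-146a-3p (0.966). For miR-9-3p they were miR-181b-2-3p (0.987), miR-17-5p (0.983) and miR-106a-5p (0.978). For miR-135a-5p they were miR-467c-5p (0.958), miR-466o-3p (0.958) and miR-466c-5p (0.957), and for miR-135b-5p miR-466b-5p (0.967), miR-466o-3p (0.961) and miR-155-3p (0.959).

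Between members, r was 0.996 for the miR-135 strands and 0.972 for both arms of miR-9, and between 0.893 and 0.935 for a miR-9 with a miR-135 strand. These values run over the libraries by which the members were chosen, so nothing is read from them. Other microRNAs reached up to 0.987 with an arm of miR-9, and up to 0.967 with a miR-135 strand. The miR-466 and miR-467 microRNAs close to miR-135 belong to a repeated cluster whose members resemble each other, and their reads may be divided among copies. miR-466o-3p, the microRNA listed for both miR-135 strands, was at 1.00 to 2.18 CPM without LPS and 10.4 to 18.5 CPM with LPS.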

How the data were processed

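Small RNA libraries were prepared by the submitters with the NextFlex kit (17 PCR cycles) and read to 75 nt. The submitters' processing notes name cutadapt 1.2.1, Bowtie2 and the mm10 build. The counting program and its handling of reads matching several places are not given in the sources used here. The deposited table holds raw read counts per feature and library, without normalization. The labels give LPS as 5 µg/ml in one field and in mg/ml in another, and the former was used because the study's methods give it too. The study's methods describe total RNA, not these small RNA libraries, and cells taken before and after stimulation. Whether the non-stimulated cells were cultured rests on the labels alone.

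Counts of the microRNA class were analysed in R 4.3.3 with edgeR 4.0.16 (TMM scaling, filterByExpr by group, two-sided quasi-likelihood F-test, Benjamini-Hochberg adjustment over all features tested, called at an adjusted p under 0.05). DESeq2 1.42.0 was an alternative. The LPS contrast was fitted with genotype as an additive term over the 8 wt and 3'RR-deficient libraries, 3'RR-deficient against wt with a mean per group in the same libraries, and Eµ-deficient against wt over all 10 libraries with an additive term for stimulation. Replicates were separate pools per the labels, but nothing says how far they are independent, so p-values measure the spread between these libraries. Folds against groups with 0 counts used a floor of 3 counts per library and copy. Calculations were tested on simulated data. The members and lists were chosen with earlier results of these data known. Named features were the members, the other products of their loci, the 3 microRNAs most like each member, and the largest called changes (up to 4 in each direction) of the Toll-like receptor and neural lists. miR-155-5p, miR-21a-5p, miR-146a-5p, the other cell type markers quoted singly, and the low neural microRNAs were named after their values were seen. Sequences are from RefSeq, and positions in genes from GENCODE M21. Folds with single libraries left out, ratios to single wt libraries and lists without the second non-stimulated replicates were chosen after seeing the data.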

Additional observations from a re-analysis of the deposited data

Results flagged for a closer look

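The ratio of Eµ-deficient to wt cells had opposite directions without and with LPS for both miR-135 strands. For miR-135a-5p the Eµ-deficient library was at 7.75 times the wt mean without LPS and at 0.22 times with LPS. For miR-135b-5p the ratios were 4.92 and 0.24. Against wt replicate 1 alone they were 3.87 and 0.53 for miR-135a-5p and 2.46 and 0.61 for miR-135b-5p, and against wt LPS replicate 2 alone 0.14 and 0.15, so that their size rests on single wt libraries. For both strands the Eµ-deficient library lay above both wt libraries without LPS and below both with LPS, as it did for 5.26% of 988 features. In a fit with a mean per group, chosen after seeing the data, the difference between conditions was -4.85 for miR-135a-5p and -3.99 for miR-135b-5p on the log2 scale. The lone Eµ-deficient library was there assumed to vary like the replicated groups. This difference includes the LPS change by which the members were chosen, so it is given without a test. The non-stimulated ratios rest on 42 and 16 counts in the Eµ-deficient library against 10 and 6 counts in a single wt library.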

How the results depend on the processing

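The miR-135 strands had 0 counts in 3 of 5 non-stimulated libraries, of which 2 were the shallowest and 1 held 11915044 counts. The LPS log2 difference with the second non-stimulated replicates left out was 2.90 for miR-9-5p and 3.18 for miR-9-3p. With a prior count of 0.5 it was 8.52 for miR-135a-5p and 7.89 for miR-135b-5p. Over single libraries left out it ranged from 3.46 to 4.15, 4.86 to 6.50, 6.48 to 7.35 and 5.81 to 6.68 for miR-9-5p, miR-9-3p, miR-135a-5p and miR-135b-5p. The features called with LPS were 157, 247 by DESeq2, 217 (118 higher) without the second non-stimulated replicates, and 71 to 163 with single libraries left out (71 and 75 without the second and first wt LPS library, 84 and 98 without the second and first 3'RR-deficient one).

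For 3'RR-deficient against wt cells, DESeq2 called 2 features and edgeR with the GC trend removed and a replicate block called 1. With single libraries left out, the log2 difference ranged from -1.69 to 0.63 for miR-135a-5p and from -1.68 to 0.70 for miR-135b-5p, turning positive at 0.63 and 0.70 without wt LPS replicate 2, and at 0.12 and 0.11 with the first 3'RR-deficient LPS library left out. The miR-9 differences stayed positive in every alternative run.

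For Eµ-deficient against wt cells the 16 calls became 28 with library totals, 47 with no filter, 57 by DESeq2, 29 with the GC trend removed, 28 with that and the replicate block, 34 with counts per copy and 71 without the second non-stimulated replicates (the last 2 chosen after seeing the data). With single libraries left out they ranged from 1 (without the Eµ-deficient LPS library) to 33 (without wt non-stimulated replicate 1), with 2 without either wt LPS replicate. The sign of the miR-9 values was not stable. miR-9-3p turned to 0.20 with DESeq2 size factors, 0.50 with library totals, 0.16 with no filter, 0.28 at 10 CPM in at least 2 libraries, 0.25 by DESeq2, 0.17 with mature microRNAs alone, 0.24 with the GC trend removed and 0.25 with counts per copy. miR-9-5p turned to 0.16 with library totals, 0.00996 at 10 CPM, 0.0104 with the GC trend removed and the replicate block, and 0.0302 with counts per copy. miR-135b-5p turned to -0.0232 without the second non-stimulated replicates. With single libraries left out the ranges were -0.52 to 0.57 for miR-9-5p, -0.97 to 1.49 for miR-9-3p, -2.62 to 3.46 for miR-135a-5p and -2.39 to 2.71 for miR-135b-5p. No member was called in any of these fits, and the cause of the changes was not tested.

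The replicate numbers were not taken as pairs: replicate deviations correlated at 0.666 between the non-stimulated groups, at 0.111 between the LPS groups and at -0.283 to -0.054 across conditions. With the replicate block alone 156, 0 and 15 features were called in the LPS, 3'RR and Eµ comparisons, and the 3'RR difference was 0.49 for miR-9-5p and -0.56 for miR-135a-5p.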
